A study of Mus musculus with 12 samples.

Results

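The Fc gamma receptors are the cell-surface receptors by which macrophages bind the constant part of IgG antibodies. In the mouse there are 4 classical ones, Fcgr1, Fcgr2b, Fcgr3 and Fcgr4, and the results below follow these 4 genes, taken by symbol from the 16570 genes of the deposited table. Gene expression had been measured by RNA sequencing in 12 libraries of bone marrow-derived macrophages from C57BL/6J mice aged 6 to 8 weeks, with 3 libraries in each of 4 culture conditions. All cultures received M-CSF at 50 ng/mL for the 2 days of the experiment, after an earlier 2 days with M-CSF alone. One group received RANKL at 100 ng/mL with 1 µM RHC80267, which is used to block diacylglycerol lipase, and another the same RANKL with 1 µM BMS309403, which occupies the lipid pocket of FABP4, a fatty acid carrier. The other two groups received RANKL at 100 ng/mL with no inhibitor, or M-CSF alone. The treatment entry writes RANK where the sample entries of the inhibitor groups write RANKL, and the growth entry describes a longer culture with RANKL than these 2 days. No vehicle is named for the groups without inhibitor, and no number of animals is given. Whether the 3 libraries of a group are separate cultures or animals is not said, so a p-value reflects the spread of the libraries alone, and that may be technical.

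Fcgr1, the high-affinity receptor, and Fcgr3 and Fcgr4, of lower affinity, are activating receptors. Each works through the gamma chain encoded by Fcer1g, whose ITAM motif is phosphorylated by Src-family kinases and then binds the kinase Syk. Fcgr2b is the inhibitory receptor: its own ITIM motif recruits the lipid phosphatase SHIP1, encoded by Inpp5d, and dampens signals of the activating receptors. In osteoclast precursors the gamma chain is also known as a co-stimulatory adaptor for the RANKL response.

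Fcgr2b, Fcgr4 and Fcgr3 lie together on mouse chromosome 1 and Fcgr1 on chromosome 3 (GRCm38, as the deposited table gives them). Fcgr2b (gene 14130) spans 170960558 to 170977746, Fcgr4 (gene 246256) 171018926 to 171029761, Fcgr3 (gene 14131) 171051169 to 171065915, and Fcgr1 (gene 14129) 96282909 to 96293969. The deposited entry of Fcgr2b ends 1675 bases beyond the RefSeq gene, is written on the plus strand where RefSeq has the minus strand, and holds 1 further transcript beside the RefSeq mRNAs. Reads of that transcript and of Fcgr2b cannot be told apart here.

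Fcgr2b and Fcgr3 are close relatives, and a read from their shared parts can belong to either. Of 782 aligned coding bases 86.7% were identical between Fcgr2b and Fcgr3, against 64.1% to 67.3% for every other pair among the 4 genes. The longest identical run in the spliced coding sequences was 129 bases, at coding positions 278 to 406 of Fcgr2b and 263 to 391 of Fcgr3. It is shown because a read lying wholly inside it fits both genes equally by its letters, and both genes have the same letters:
Fcgr2b and Fcgr3: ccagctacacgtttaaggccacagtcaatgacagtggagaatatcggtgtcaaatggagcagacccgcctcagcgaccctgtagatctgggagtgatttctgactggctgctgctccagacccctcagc
Stretches of 50 bases found unchanged in Fcgr3 made up 17.1% of those in the Fcgr2b coding sequence, and none was shared by any pair that included Fcgr1 or Fcgr4. The deposited counts of Fcgr2b and Fcgr3 were whole numbers in 10 of 12 libraries (within 0.005), and those of Fcgr1 and Fcgr4 in all 12. In M-CSF replicate 1 the count was 3265.13 for Fcgr2b and 23471.87 for Fcgr3, and in RANKL replicate 2 it was 3659.45 and 14090.55. A fit with the rows of Fcgr2b and Fcgr3 replaced by their sum is given beside the single genes below.

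Total expected counts were 17760844 to 18344989 per library, and all 4 receptors passed the filter on low counts. RANKL replicates 1 and 3 differed most among replicate pairs, with a chi-square of 5.22 per degree of freedom over genes against 2.19 to 3.95 for the other pairs. The labels call the cells of the RANKL groups osteoclasts, and all 10 osteoclast markers rose with RANKL relative to M-CSF. In that comparison 61.2% of all genes were called, 31.4% higher and 29.8% lower. Summed marker levels are counts per total counts of the library (CPM), without the TMM scaling factors behind the CPM of single genes below, and so stand on a slightly different scale. The osteoclast markers summed to 17134 to 19142 CPM with RHC80267, 6747 to 7643 with BMS309403, 8428 to 10557 with RANKL and 171 to 197 with M-CSF. The summed level of the 12 macrophage markers was 9894 to 10204 CPM with RHC80267, 11043 to 11321 with BMS309403, 10065 to 10458 with RANKL and 15180 to 15948 with M-CSF. Of the 12, 9 fell and 1 rose with RANKL relative to M-CSF, where 29.8% of all genes were lower and 31.4% higher. With BMS309403 relative to RANKL 5 of them rose and 0 fell, while 8 of the 10 osteoclast markers fell and 0 rose. Of all genes 3.49% were higher and 3.74% lower there. Without RANKL replicate 1 or BMS309403 replicate 2 these counts of 5 and 8 were 3 and 5. With RHC80267 relative to RANKL 3 macrophage markers rose and 5 fell, and 10 osteoclast markers rose. Of all genes 26.9% were higher and 23.0% lower there. The part of these shifts in the changes of the receptors was not tested. Markers of other cells that carry these receptors were present. The 12 neutrophil markers summed to 910 to 1275 CPM with RHC80267, 1687 to 1826 with BMS309403, 1685 to 1895 with RANKL and 1353 to 1886 with M-CSF. The 10 dendritic cell markers summed to 54.4 to 59.7 CPM with RHC80267, 69.3 to 76.9 with BMS309403, 77.8 to 87.2 with RANKL and 61.9 to 81.1 with M-CSF. Of the 9 that were tested 5 fell and 0 rose with RHC80267 relative to RANKL (median −0.44), where 49.9% of all genes were called, 23.0% lower. With BMS309403 relative to RANKL 0 were called (median −0.15), where 7.23% of all genes were called. With RANKL relative to M-CSF 3 rose and 2 fell (median 0.01), where 61.2% of all genes were called. The part of these markers in the falls of the receptors was not tested. B cell, mast cell and natural killer cell markers summed to at most 16.4, 32.5 and 4.37 CPM in any library, with the natural killer gene Ncr1 at 0 counts in the M-CSF, RANKL and RHC80267 groups. In these bulk samples, fewer cells of a type and less RNA per cell cannot be told apart.

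**Figure D1:**
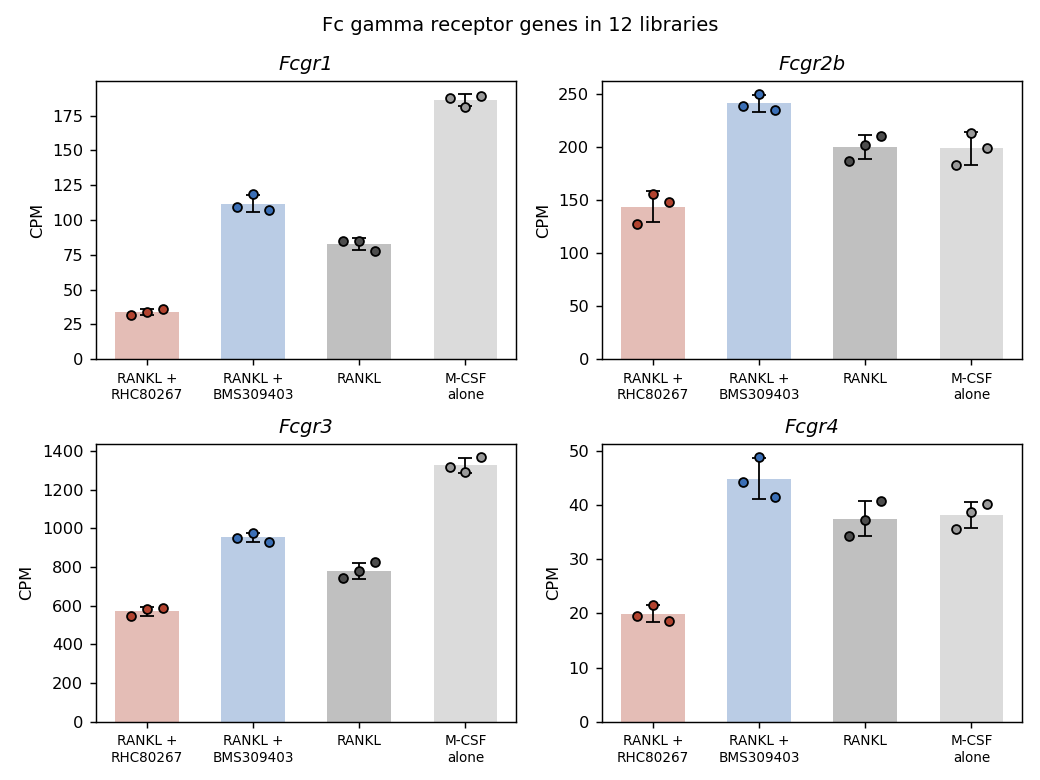
CPM of each receptor gene on a linear axis from 0, by culture condition. Points are libraries, bars the mean of 3 libraries and whiskers the SD. The RHC80267 libraries are the lowest of the 12 for every receptor, and the M-CSF libraries stand above the RANKL libraries for Fcgr1 and Fcgr3 but overlap them for Fcgr2b and Fcgr4. The share of all genes with such a pattern was not counted.

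Fcgr1, which alone among the 4 binds monomeric IgG with high affinity, showed the widest changes. Its level was 31.9, 33.7 and 35.7 CPM, by TMM-scaled library sizes, in the RHC80267 libraries and 109, 119 and 107 CPM in the BMS309403 libraries. In the RANKL libraries it was 85.3, 84.9 and 77.4 CPM, and in the M-CSF libraries 188, 181 and 189 CPM. No library of any group overlapped with those of another group. The share of all genes without such overlap was not counted, here or for Fcgr3 below. RANKL lowered Fcgr1 2.26-fold relative to M-CSF (log2 change −1.17 ± 0.05 SE, edgeR adjusted p = 3.18e-15), one of 2 receptors called lower and 0 called higher. Of all genes tested 61.2% were called in this comparison, 29.8% lower and 31.4% higher. RHC80267 lowered it a further 2.44-fold relative to RANKL (−1.29 ± 0.05, edgeR adjusted p = 4.70e-14), where 49.9% of all genes were called, 23.0% lower and 26.9% higher. BMS309403 raised it by 0.44 ± 0.05 on the log2 scale relative to RANKL (edgeR adjusted p = 8.75e-05), where 7.23% of all genes were called, 3.49% higher and 3.74% lower.

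Fcgr3, the most abundant of the 4, moved the same way in steps of a smaller size. It was at 546, 581 and 587 CPM with RHC80267 and at 953, 975 and 932 CPM with BMS309403. The RANKL libraries had 742, 778 and 825 CPM and the M-CSF libraries 1315, 1292 and 1370 CPM. Again the 4 groups did not overlap. The fall with RANKL relative to M-CSF was 1.70-fold (log2 change −0.76 ± 0.04, edgeR adjusted p = 5.59e-13). RHC80267 lowered Fcgr3 by 0.45 on the log2 scale relative to RANKL (SE 0.04, edgeR adjusted p = 1.07e-08), and BMS309403 raised it by 0.29 ± 0.04 (edgeR adjusted p = 0.000358).

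Fcgr4, the activating receptor found mainly on monocytes, macrophages and neutrophils, did not follow Fcgr1 and Fcgr3 when RANKL was added. Its level was 19.5, 21.6 and 18.6 CPM with RHC80267 and 44.2, 48.9 and 41.5 CPM with BMS309403. With RANKL it was 34.3, 37.3 and 40.7 CPM and with M-CSF 35.6, 38.7 and 40.3 CPM, so the RANKL and M-CSF libraries overlapped. Fcgr4 was not called between RANKL and M-CSF (log2 change −0.03, 95% interval −0.18 to 0.12, edgeR adjusted p = 0.741). RHC80267 lowered it 1.88-fold relative to RANKL (−0.91 ± 0.08, edgeR adjusted p = 3.30e-09). The rise with BMS309403 was 0.26 ± 0.07 (edgeR adjusted p = 0.0244), and this call was lost when any of 4 of the 6 libraries was left out. The change was 0.20 without RANKL replicate 1 (adjusted p = 0.186) and 0.27 without RANKL replicate 2 (adjusted p = 0.0674). It was 0.27 when BMS309403 replicate 1 was removed (adjusted p = 0.0536) and 0.20 when its replicate 2 was (adjusted p = 0.176). Of the 12 neutrophil markers 8 fell and 0 rose with RHC80267 relative to RANKL, where 49.9% of all genes were called, 23.0% lower. All 4 receptors fell in that comparison. With BMS309403 relative to RANKL 1 of the 12 markers rose and 0 fell (median −0.02), where 3.49% of all genes were higher. With RANKL relative to M-CSF 7 rose and 4 fell (median 0.31), where 31.4% of all genes were higher and 29.8% lower. The number that rose with RANKL was 1 with DESeq2 and 0 without M-CSF replicate 3. The part of neutrophils in the falls of the receptors was not tested.

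Fcgr2b, the inhibitory receptor, was the other gene that RANKL left within the spread of the libraries. It was at 127, 156 and 148 CPM with RHC80267 and at 239, 250 and 234 CPM with BMS309403. The RANKL libraries had 187, 202 and 210 CPM and the M-CSF libraries 183, 213 and 199 CPM. RANKL and M-CSF overlapped throughout, and the log2 change was 0.01 with a 95% interval of −0.12 to 0.14 (edgeR adjusted p = 0.908). RHC80267 lowered Fcgr2b by 0.48 on the log2 scale relative to RANKL (SE 0.06, edgeR adjusted p = 1.70e-06). BMS309403 raised it by 0.27 ± 0.06 (edgeR adjusted p = 0.00856), but it was not called when RANKL replicate 1 was left out (0.23, adjusted p = 0.0787) or when BMS309403 replicate 2 was (0.25, adjusted p = 0.0571). With Fcgr2b and Fcgr3 summed, the change was −0.64 ± 0.04 for RANKL relative to M-CSF, −0.46 ± 0.04 for RHC80267 and 0.28 ± 0.04 for BMS309403 relative to RANKL, and each was called.

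**Figure D2:**
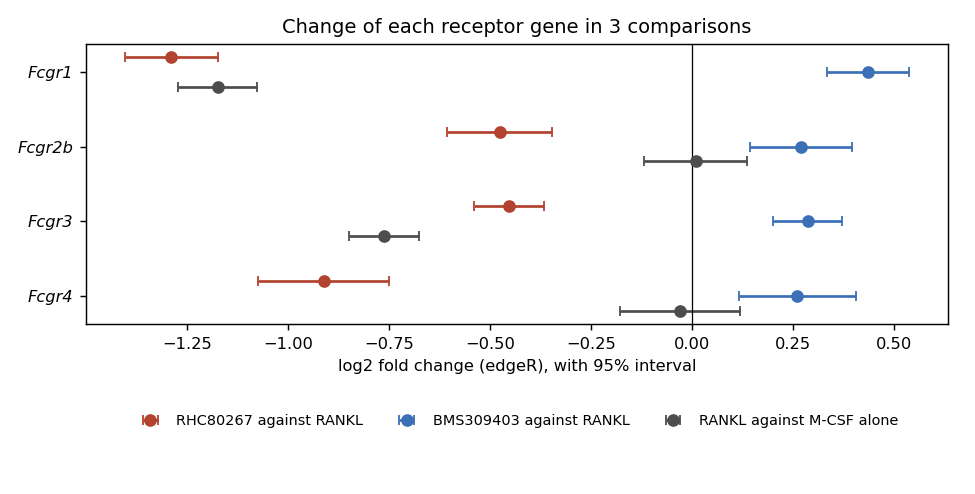
Log2 fold change of each receptor (points) with its 95% interval (whiskers) for RHC80267 and BMS309403, each against RANKL, and for RANKL against M-CSF. All 4 receptors lie below 0 for RHC80267 and above 0 for BMS309403, while for RANKL the intervals of Fcgr2b and Fcgr4 include 0.

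Under the inhibitors the whole family moved, and in opposite directions: 4 of 4 receptors were called lower with RHC80267 and 4 of 4 higher with BMS309403, each relative to RANKL, where 23.0% of all genes were lower with RHC80267 and 3.49% higher with BMS309403. The count for BMS309403 was 2, Fcgr1 and Fcgr3, without RANKL replicate 1 or BMS309403 replicate 2, and the number of all genes called higher, 425 with every library, was then 152 and 171. Both comparisons use the same 3 RANKL libraries. The median change of the 4 was −0.69 with RHC80267, where that of all genes tested was 0.02, and 0.28 with BMS309403, where that of all genes was −0.01.

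The comparison of RHC80267 with BMS309403, both at 1 µM, leaves the RANKL libraries out of the difference. All 4 receptors were lower with RHC80267, where 55.5% of all genes were called, 25.5% lower and 30.1% higher. Fcgr1 was 3.30-fold lower with RHC80267 (log2 change −1.72 ± 0.05, edgeR adjusted p = 2.14e-16) and Fcgr4 2.25-fold lower (−1.17 ± 0.08, edgeR adjusted p = 2.59e-11). Fcgr2b and Fcgr3 differed by −0.75 ± 0.06 and −0.74 ± 0.04, with edgeR adjusted p-values of 1.22e-09 and 2.31e-12.

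Set against M-CSF alone, the inhibitor cultures also differed from each other. With RANKL and RHC80267 all 4 receptors were lower than with M-CSF, where 70.4% of all genes were called, 34.4% lower and 36.0% higher: Fcgr1 by 5.51-fold, Fcgr3 by 2.32-fold, Fcgr4 by 1.92-fold and Fcgr2b by 1.38-fold. With RANKL and BMS309403, where 57.0% of all genes were called, 29.7% higher and 27.3% lower, Fcgr1 (−0.74 ± 0.05) and Fcgr3 (−0.48 ± 0.04) stayed below M-CSF. In the same cultures Fcgr2b (0.28 ± 0.06, edgeR adjusted p = 0.000466) and Fcgr4 (0.23 ± 0.07, edgeR adjusted p = 0.00716) were above M-CSF. The call of Fcgr4 was lost without BMS309403 replicate 2 (0.17, adjusted p = 0.0667).

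Levels of different genes can be compared only per length, for which the authors' deposited FPKM values (fragments per transcript length and sequencing depth) were used. Fcgr3 was far above the rest in every group, with 570 ± 19.8 FPKM with RHC80267, 904 ± 15.7 with BMS309403, 763 ± 29.4 with RANKL and 1264 ± 36.7 with M-CSF (SD, n = 3 each). With M-CSF it ranked 77 among 16570 genes by mean FPKM. Fcgr2b came next in each group, at 135 ± 13.5 FPKM with RHC80267, 216 ± 5.69 with BMS309403, 184 ± 8.24 with RANKL and 178 ± 12.4 with M-CSF. The order of the lower pair depended on the culture. With M-CSF, Fcgr1 at 80.7 ± 1.97 FPKM stood above Fcgr4 at 40.4 ± 2.14 FPKM. With RANKL, Fcgr1 at 36.6 ± 2.26 and Fcgr4 at 40.6 ± 2.85 FPKM had overlapping libraries, and so did they with BMS309403, at 48.2 ± 2.44 and 47.2 ± 3.62 FPKM. With RHC80267, Fcgr1 at 15.4 ± 0.86 FPKM was below Fcgr4 at 22.0 ± 1.71 FPKM with no overlap. The 4 receptors together came to 742 ± 33.5 FPKM with RHC80267, 1215 ± 26.9 with BMS309403, 1024 ± 38.1 with RANKL and 1564 ± 33.4 with M-CSF.

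The level of the inhibitory receptor was set against the summed level of the activating receptors. Fcgr2b FPKM amounted to 22.2% ± 1.57 of the summed FPKM of the activating receptors with RHC80267, 21.6% ± 0.17 with BMS309403, 21.9% ± 0.34 with RANKL and 12.9% ± 1.17 with M-CSF (SD, n = 3 each). All 9 libraries with RANKL were above all 3 with M-CSF. On the log2 scale the ratio was higher by 0.77 ± 0.08 (SE) with RANKL than with M-CSF, at an exact two-sided permutation p of 0.1 (0.2 adjusted over the 6 comparisons), which is the smallest p that 3 against 3 libraries can give. The libraries of both inhibitor groups overlapped those of RANKL: the difference was 0.02 ± 0.06 with RHC80267 (exact permutation p = 0.8) and −0.02 ± 0.01 with BMS309403 (exact permutation p = 0.3). Fcgr3 makes up most of the activating sum, and against the other activating receptors singly the RHC80267 libraries stood apart. Fcgr2b FPKM was 823% to 958% of Fcgr1 FPKM with RHC80267, 436% to 455% with BMS309403, 458% to 561% with RANKL and 202% to 243% with M-CSF, with no overlap between groups. Of Fcgr4 FPKM it was 553% to 677% with RHC80267, 435% to 481% with BMS309403, 439% to 463% with RANKL and 421% to 469% with M-CSF, with RHC80267 above all the rest. These single ratios are given as values, with no test.

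**Figure D3:**
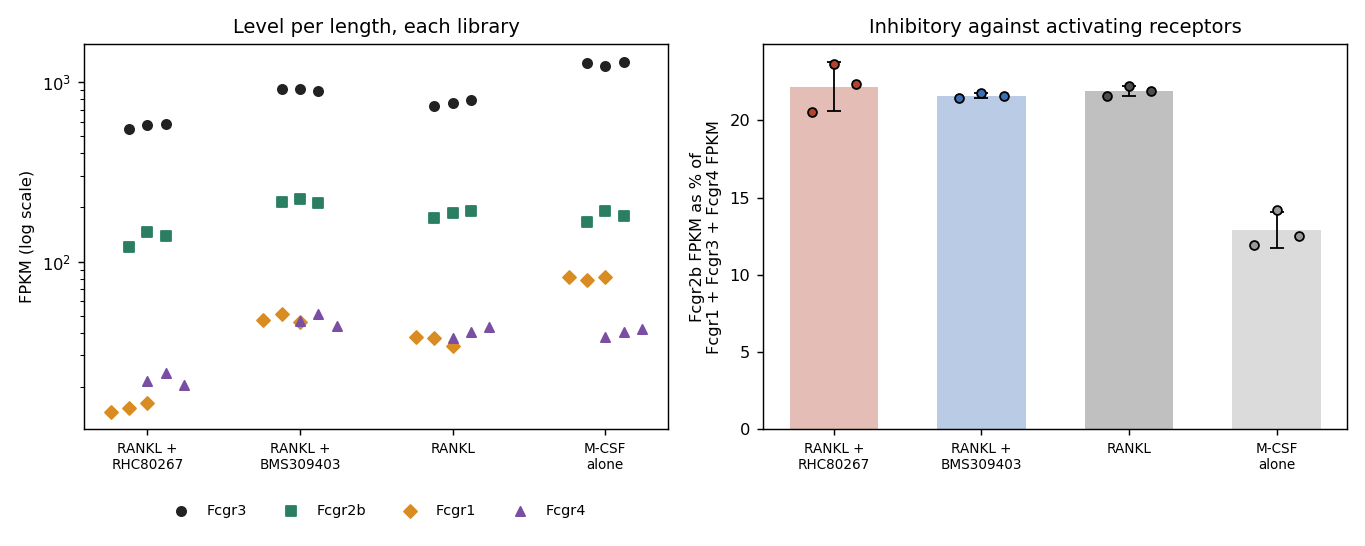
Left, FPKM of the 4 receptors in each library on a log axis, with one marker shape per gene. Right, Fcgr2b FPKM as a percentage of the summed FPKM of Fcgr1, Fcgr3 and Fcgr4, with points for libraries, bars for the mean and whiskers for the SD (n = 3). The percentage averages 12.9% with M-CSF and 21.6% to 22.2% in the groups with RANKL.

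The signalling partners of the receptors were followed in lists of genes with known roles, chosen with earlier results of these data known. Fcer1g, the gamma chain that the activating receptors share, had the same directions as Fcgr3. It averaged 351 CPM with RHC80267, 466 with BMS309403, 421 with RANKL and 635 with M-CSF. Fcer1g fell with RANKL relative to M-CSF by 0.59 on the log2 scale (SE 0.04, edgeR adjusted p = 1.30e-10) and with RHC80267 relative to RANKL by 0.26 (SE 0.04, edgeR adjusted p = 5.25e-05). With BMS309403 it was 0.15 ± 0.04 above RANKL (edgeR adjusted p = 0.0473), a call that did not hold when RANKL replicate 1, RANKL replicate 2, BMS309403 replicate 1 or BMS309403 replicate 2 was left out (adjusted p = 0.0813 to 0.266).

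Of 29 genes of activating signalling 28 were tested, and 14 fell and 10 rose with RANKL relative to M-CSF, with a median of −0.07 where that of all genes was 0.00 and 61.2% of all genes were called, 29.8% lower. The Src-family kinases Lyn and Fgr did not move as one. Lyn fell (−0.47 ± 0.04), while Fgr rose by 1.71 ± 0.09. Syk, the kinase that binds the phosphorylated gamma chain, rose by 0.27 ± 0.04, and Btk (0.18 ± 0.04) and the adaptor Lcp2 (0.17 ± 0.04) rose as well. Vav1, an exchange factor for Rac, fell (−0.33 ± 0.04). Plcg2, a phospholipase, was at −0.12 ± 0.04, called here but not when M-CSF replicate 1, M-CSF replicate 3 or RANKL replicate 3 was left out (adjusted p = 0.0507 to 0.132). With RHC80267 relative to RANKL 12 of the 28 fell and 6 rose, with a median of −0.08, where 49.9% of all genes were called, 23.0% lower. Lyn (−0.39 ± 0.04), Fgr (−0.56 ± 0.08) and Plcg2 (−0.20 ± 0.04) were among those that fell. Syk (−0.07) and Vav1 (−0.07) were not called, but both were in a fit of the compared groups alone (edgeR adjusted p = 0.0279 and 0.0353). Syk was also called with the stricter filter and without RANKL replicate 1 (edgeR adjusted p = 0.0432 and 0.0464). Lcp2 was at 0.13 ± 0.04, a call lost without RANKL replicate 2 or RHC80267 replicate 2 (adjusted p = 0.0632 and 0.0524). With BMS309403 relative to RANKL Fcer1g was the 1 that rose, and 4 fell: the adaptor Lat (−0.77 ± 0.17), the kinase Src (−0.32 ± 0.06), the lipid kinase subunit Pik3cb (−0.26 ± 0.05) and the GTPase Rac2 (−0.13 ± 0.04). Over all genes 7.23% were called. The median was 0.01, and without BMS309403 replicate 2 the number that fell was 2. Syk, Lyn, Fgr, Plcg2, Vav1, Lcp2 and Btk were not called.

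On the inhibitory side, 6 of 10 genes fell and 3 rose with RANKL relative to M-CSF (median −0.17), where 61.2% of all genes were called, 29.8% lower. Inpp5d, the SHIP1 phosphatase recruited by Fcgr2b, averaged 291 CPM with RHC80267, 359 with BMS309403, 351 with RANKL and 429 with M-CSF. It fell by 0.29 on the log2 scale with RANKL relative to M-CSF (SE 0.04, edgeR adjusted p = 4.26e-07) and by 0.27 with RHC80267 relative to RANKL (SE 0.04, edgeR adjusted p = 2.66e-06). The adaptors Dok1 and Dok3, which dampen signalling downstream of such receptors, rose with RANKL by 0.16 ± 0.04 and 0.45 ± 0.05. The phosphatase Ptpn6 was at 0.09 ± 0.03, called except when M-CSF replicate 2, RANKL replicate 1 or RANKL replicate 2 was left out (adjusted p = 0.0535 to 0.130). Dok2 was at 0.13 ± 0.06 with RANKL and not called (edgeR adjusted p = 0.0539, and 0.0317 to 0.0494 under the 4 alternatives that called it), but it fell with RHC80267 relative to RANKL, by 0.77 (SE 0.06, edgeR adjusted p = 8.46e-10). With RHC80267, 4 of the 10 rose and 2 fell (median 0.04), a share near the 49.9% called over all genes, with Dok3 at 0.21 ± 0.04. Dok1 was at 0.12 ± 0.04, a call lost with DESeq2, with no filter, in a fit of the RHC80267 and RANKL libraries alone, and when RANKL replicate 2 or RHC80267 replicate 1 was left out (adjusted p = 0.0601 to 0.205). With BMS309403 0 of the 10 were called by edgeR, DESeq2 or limma-voom (median −0.01), and 1 had an unadjusted edgeR p below 0.05. Over all genes edgeR called 7.23% in this comparison, so the count is near the background.

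**Figure D4:**
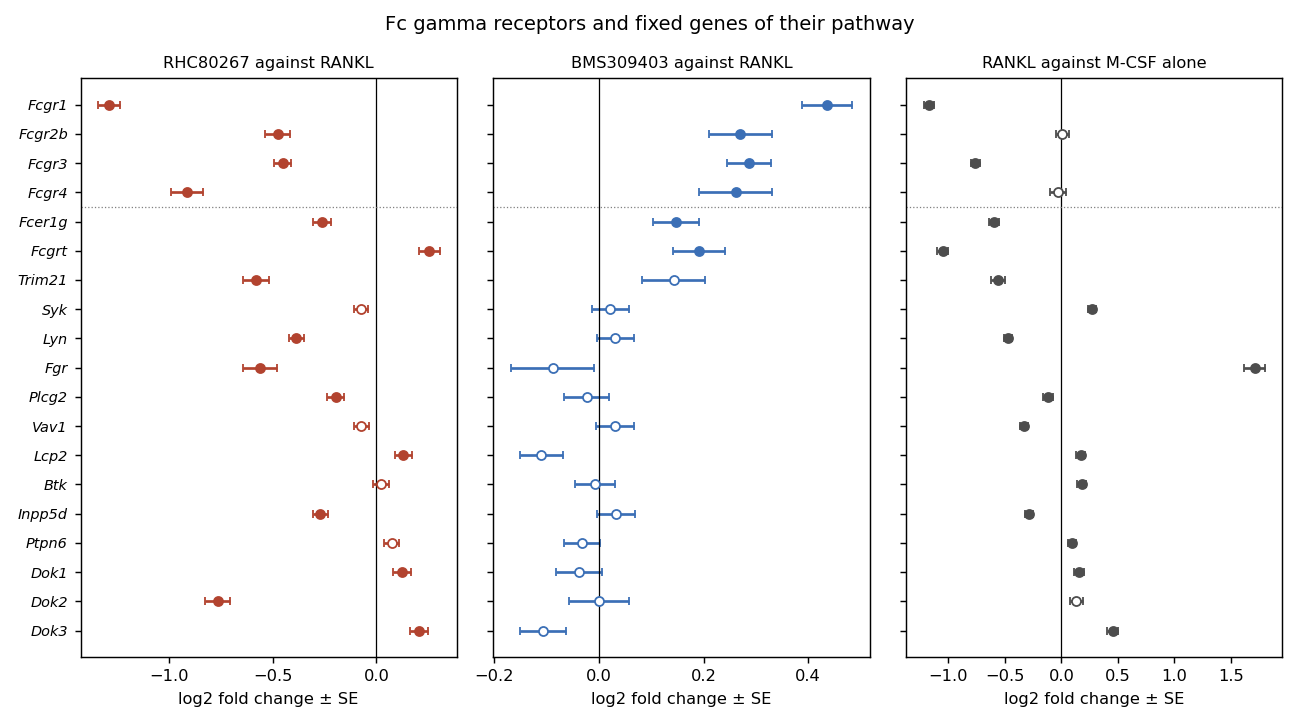
Log2 fold change ± SE of the 4 receptors (above the dotted line) and of fixed genes of their pathway (below it) for RHC80267 and BMS309403, each against RANKL, and for RANKL against M-CSF. Filled points have an adjusted p below 0.05, and each panel has its own horizontal scale. With BMS309403 the 4 receptors, Fcer1g and Fcgrt lie above 0 with filled points, and the kinases lie near 0.

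Receptors for antibody and related genes outside the classical family were also followed. Fcgrt, the neonatal receptor that salvages IgG from degradation, averaged 160 CPM with RHC80267, 154 with BMS309403, 135 with RANKL and 278 with M-CSF. It fell with RANKL relative to M-CSF by 1.05 on the log2 scale (SE 0.05, edgeR adjusted p = 4.05e-14). With RHC80267 it rose relative to RANKL, by 0.25 ± 0.05 (edgeR adjusted p = 0.000235), where the 4 Fc gamma receptors fell. With BMS309403 it was at 0.19 ± 0.05 (edgeR adjusted p = 0.0225), which was not called when RANKL replicate 1 (adjusted p = 0.189) or BMS309403 replicate 2 (adjusted p = 0.103) was left out. Trim21, a cytosolic antibody receptor, fell with RANKL relative to M-CSF by 0.56 (SE 0.06, edgeR adjusted p = 2.60e-08) and with RHC80267 relative to RANKL by 0.58 (SE 0.06, edgeR adjusted p = 1.94e-07). Fcrls, an Fc receptor-like gene expressed in macrophages, fell with RANKL relative to M-CSF by 3.47 (SE 0.08) and rose with RHC80267 relative to RANKL by 0.54 (SE 0.09). Of the 13 genes in this list 7 were tested, of which 4 fell and 1 rose with RANKL (median −0.56), where 61.2% of all genes were called. With RHC80267 2 fell and 3 rose (median −0.10), where 49.9% were called. With BMS309403 1 rose, Fcgrt, and 0 fell (median 0.19), where 7.23% were called.

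Within 200 kb of a receptor the table holds 30 genes outside the family, Fcer1g among them, of which 21 were tested. With RANKL relative to M-CSF 8 rose and 5 fell, with RHC80267 relative to RANKL 7 rose and 2 fell (4 without RHC80267 replicate 3), and with BMS309403 1 rose, Fcer1g, and 1 fell. Over all genes 61.2%, 49.9% and 7.23% were called in these comparisons, so the counts are near the background and are not a result about these genes. Sdhc, a subunit of the respiratory chain on the Fcgr3 side of the cluster, rose with RANKL by 0.71 ± 0.04 and with RHC80267 by 0.22 ± 0.04. Pcp4l1, between Sdhc and Fcer1g, fell with RANKL by 0.49 (SE 0.10) and with RHC80267 by 1.31 (SE 0.12). Fcrlb, an intracellular Fc receptor-like gene on the Fcgr2b side of the cluster, beyond Fcrla, had 233 counts over the 3 RHC80267 libraries, 66 over the RANKL libraries and 10 over the M-CSF libraries, and rose with RHC80267 relative to RANKL by 1.79 ± 0.19. Gm39701, which lies between Fcrla and Fcgr2b, rose with RHC80267 by 0.75 ± 0.07. On chromosome 3 beside Fcgr1, the histone gene H2bc21 rose with RANKL by 0.61 ± 0.07 and with RHC80267 by 0.41 ± 0.06. Otud7b, a deubiquitinase gene, fell with BMS309403 by 0.22 (SE 0.06), and was not called when RANKL replicate 1, BMS309403 replicate 1 or BMS309403 replicate 3 was left out.

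The genes whose levels followed a receptor most closely were sought by the root mean square difference of log2 CPM over the 12 libraries, each gene centred on its own mean, among 9822 genes. For Fcgr1 they were Gm5431 (0.12), the transcription factor gene Mef2c (0.13) and Prr5l (0.18). For Fcgr3 they were P2ry12, a purinergic receptor (0.06), the xylosyltransferase gene Xylt2 (0.07) and Ly86, which encodes MD-1 (0.08). Closest to Fcgr4 stood Selenow (0.07), Evi2a (0.08) and the heparanase gene Hpse (0.09), and closest to Fcgr2b Gla, the lysosomal alpha-galactosidase (0.09), Eepd1 (0.09) and Gas2l3 (0.09). The 12 libraries fall into 4 groups, so these values mainly compare group means, and with Pearson's correlation in place of the difference 2 of the 3 genes were named again for Fcgr3 and Fcgr4 and 0 for Fcgr1 and Fcgr2b.

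The list of interferon response genes was chosen with earlier results of these data known, so its counts are not independent support. Its tested genes moved in the same directions as the receptors under both inhibitors. Of 23 interferon response genes tested 23 fell with RHC80267 relative to RANKL (median −2.60) and 23 rose with BMS309403 (median 0.45), while with RANKL relative to M-CSF 18 fell and 2 rose (median −0.32). Of all genes 23.0% were lower with RHC80267, 3.49% higher with BMS309403 and 29.8% lower with RANKL. The 2 that rose were Usp18 (0.25 ± 0.08) and Ddx58 (0.16 ± 0.06), and 0 rose when M-CSF replicate 2 or RANKL replicate 2 was left out. Interferon is known to raise Fcgr1 in macrophages, and its part in the changes of the receptors was not tested.

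RefSeq promoter windows on GRCm38.p6, from 250 bases before to 50 bases after the annotated start, were found for all 4 receptors and searched on both strands for 3 motifs. These were the interferon-gamma activated site TTCNNNGAA, the interferon-stimulated response element (GAAA, any 2 bases, GAAA) and the core GAGGAA of PU.1, the transcription factor of the myeloid lineage, with no overlap between matches in these windows. The promoters of Fcgr1 and Fcgr4 are printed because they hold the 2 interferon motif matches found in the windows searched, with every match in capitals:
Fcgr1, chr3:96293920-96294219, minus strand: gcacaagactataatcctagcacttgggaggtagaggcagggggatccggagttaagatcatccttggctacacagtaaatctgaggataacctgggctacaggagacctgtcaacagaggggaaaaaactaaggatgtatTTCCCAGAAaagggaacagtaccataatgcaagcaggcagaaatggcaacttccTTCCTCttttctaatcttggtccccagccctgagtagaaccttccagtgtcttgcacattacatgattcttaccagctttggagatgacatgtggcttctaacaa
Fcgr4, chr1:171018676-171018975, plus strand: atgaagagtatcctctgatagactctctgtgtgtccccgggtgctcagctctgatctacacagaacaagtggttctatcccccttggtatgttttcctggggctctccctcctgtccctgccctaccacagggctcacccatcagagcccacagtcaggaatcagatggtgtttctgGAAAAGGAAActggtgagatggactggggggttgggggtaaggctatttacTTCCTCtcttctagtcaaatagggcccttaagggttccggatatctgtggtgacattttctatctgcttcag
In the Fcgr1 window the first capitals match the activated site, at −109 to −101 from the start, and the second the PU.1 core on the other strand, at −55 to −50. In the Fcgr4 window the first capitals match the response element, at −73 to −64, and the second the PU.1 core on the other strand, at −22 to −17. Both Fcgr3 windows held the PU.1 core on the other strand, within 15 bases before the start, and no interferon motif. These windows lie between 171059345 and 171059653, and the outer end of this minus-strand gene, at 171065915, was not searched. The Fcgr2b window held none of the 3 motifs. Among 32851 promoter windows of the same length, 8.30% held the activated site, 3.44% the response element and 28.3% the PU.1 core. A match is a description of the letters and not evidence of binding.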

How the data were processed

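RNA from 12 libraries, 3 per group and grouped by title, was analysed from 1 deposited table. It gives a read count per gene, per the file headers. Since 9.49% to 9.89% of genes per library carry decimals, they were taken for expected counts, which the authors deposited beside FPKM values. The authors' deposited log2 fold changes and q-values were used only as a check. The submitters' processing notes list Bowtie2, RSEM 1.3.1 and DESeq2 1.4.5; what each did, and whether counting used strand, is not given in the sources used here.

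Expected counts were rounded and filtered with filterByExpr (4402 genes removed, 12168 tested), and TMM factors were applied. A single quasi-likelihood model by group over all libraries (edgeR 4.0.16, R 4.3.3; 8 residual degrees of freedom) gave 6 contrasts. A gene was called when its adjusted p (Benjamini-Hochberg, all tested genes, 2-sided) was below 0.05, and "rose" or "fell" means called. CPM use TMM-scaled library sizes, except the summed marker levels, which use total counts. The method was also run on simulated counts drawn with a common spread for all genes, while the fit lets the spread differ between genes. No conclusion is drawn from that run. FPKM ratios were compared by exact permutation. With 3 libraries per group, precision is limited by their spread.

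The members and lists were chosen with earlier results of these data known. Named are the 4 receptors, 16 pathway genes (1 of them not reported here), genes within 200 kb of a receptor (those described were picked for called changes or few counts), and the 3 genes most like each receptor (mean of at least 5 CPM). Lat, Src, Pik3cb, Rac2, Fcrls, Usp18 and Ddx58 were named after their values were seen. Alternatives were another test (DESeq2 1.42.0 or limma-voom, limma 3.58.1), RLE scaling, filtering at 1 CPM in 3 libraries or not at all, a fit of the compared groups alone, a replicate term, Fcgr2b and Fcgr3 summed, and omission of each library. Coding sequences are from GENCODE M21 on GRCm38 and promoters from RefSeq.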

Additional observations from a re-analysis of the deposited data

How the results depend on the processing

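Of the values for the receptors, their counts and their FPKM ratio under the alternatives, 587 were scored as kept, 7 lost the call, 9 changed sign and 3 counts moved. Kept means the same direction and side of the threshold for a fold change, and the same sign for the ratio. A count was scored as kept when it stayed equal or close, so the loss of Fcgr4 alone with BMS309403 is not among the moved counts. Values that changed on omission of a library are given as ranges, and the cause was not tested. For RANKL relative to M-CSF, neither called, Fcgr2b ranged over −0.050 to 0.059 and Fcgr4 over −0.093 to 0.031. For BMS309403 relative to RANKL, Fcgr2b ranged over 0.23 to 0.31 and Fcgr4 over 0.20 to 0.33, and the number of receptors called higher was 2 to 4. For RANKL with BMS309403 relative to M-CSF, Fcgr4 ranged over 0.17 to 0.29 and the number called higher was 1 to 2. The log2 ratio of Fcgr2b to the activating receptors ranged over −0.031 to 0.071 for RHC80267 relative to RANKL and −0.011 to 0.091 relative to BMS309403, and with Fcgr3 alone as the activating receptor it was −0.031 and −0.017.

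Among other named genes, each not called in the comparison given, signs changed on omission of a library for RANKL relative to M-CSF in Evi2a (−0.0036 to 0.063), Gas2l3 (−0.039 to 0.061) and Hpse (−0.076 to 0.093). For BMS309403 relative to RANKL they changed in Plcg2 (−0.057 to 0.016), Btk (−0.031 to 0.022, and 0.0013 with no filter) and Dok2 (−0.029 to 0.053). Btk ranged over −0.0011 to 0.036 for RHC80267 relative to RANKL and −0.020 to 0.036 relative to BMS309403. Over all genes, BMS309403 called 425 higher and 455 lower, against 152 and 111 without RANKL replicate 1 and 171 and 145 without BMS309403 replicate 2. The number called lower was 287 without RANKL replicate 2 and 299 without BMS309403 replicate 1.

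Same-numbered libraries did not deviate together (correlations −0.092 to 0.094 over 18 pairs), so the numbers were not taken as a pairing. With a replicate block the BMS309403 comparison called 437 higher and 422 lower and all receptor calls held, while Fcer1g was not called (0.15, edgeR adjusted p = 0.0562) and Dok2 was at −0.00022. In the authors' deposited table the q-value of Fcgr4 for BMS309403 was 0.0488.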
